A study of Mus musculus with 4 samples.

Results

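Myoglobin, the muscle creatine kinase and 3 genes of fuel supply and fuel choice were followed in hearts of sham-operated mice. The myoglobin gene Mb was taken as the locus XLOC_011034. For Ckm, Fabp3, Lpl and Pdk4, the locus with a UCSC model and the highest mean value overlapping a fixed mm9 interval was taken. This gave 5 loci of 35299 in the table. All hearts belonged to 1 group, Sham: C57BL/6J mice aged 12 weeks, sampled 2 weeks after a sham operation in the region labelled as the border zone of a sham infarct, in 4 biological replicates. The hearts were otherwise untreated as far as the labels say. For replicate 4 the free-text description speaks of an infarct and omits "sham", which its other labels carry. The 4 columns of the table, 3RL, 7LR, 8R and 12RL, cannot be tied to replicate numbers, so which column is replicate 4 is not known. There is no second condition, and the description is therefore of levels, their order and their spread between hearts.

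Heart muscle meets most of its energy need by burning fatty acids in mitochondria, and glucose and lactate supply much of the rest. Myoglobin, encoded by Mb, binds oxygen in the cytosol of muscle cells. Ckm encodes the muscle subunit of cytosolic creatine kinase, which passes phosphate between ATP and creatine. Lpl encodes lipoprotein lipase, which frees fatty acids from circulating triglyceride at the capillary wall, and Fabp3 encodes the heart fatty acid binding protein, which carries them in the cytosol. Pdk4 encodes a kinase that inactivates the pyruvate dehydrogenase complex and so holds back glucose oxidation.

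Each locus carried the gene of its label. At each locus, a spliced UCSC model had a chain of exon and intron lengths identical to that of a GENCODE transcript. The match was on the same chromosome and strand, to Mb, Ckm, Fabp3, Lpl or Pdk4 and to no other gene. Such chains do not depend on the genome build, and 83.7% of 43104 spliced UCSC models in the file had an identical chain in GENCODE. Along the chromosomes, 99.4% of 18016 neighbouring pairs of loci named in this way stood in the same order in both builds. Other genes below are named by the same match.

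The bases before the start sites are shown to place the 5 genes beside each other by sequence, since no peak or factor binding was measured here. RefSeq gave start sites on GRCm38.p6 for 4 of the 5 genes. Lpl was not matched. For Mb, RefSeq lists 3 starts, and the window shown lies before the upstream start of the downstream pair, within the first intron of the transcript that begins at the most upstream start. Each window holds the 250 bases before the start, 5′ to 3′ on the gene's strand: Mb chr15:77022788-77023037 (minus strand), Ckm chr7:19410844-19411093 (plus strand), Fabp3 chr4:130308488-130308737 (plus strand) and Pdk4 chr6:5496279-5496528 (minus strand). Capitals mark matches, on either strand, to the E-box CANNTG or to the nuclear receptor hexamer AGGTCA.
Mb: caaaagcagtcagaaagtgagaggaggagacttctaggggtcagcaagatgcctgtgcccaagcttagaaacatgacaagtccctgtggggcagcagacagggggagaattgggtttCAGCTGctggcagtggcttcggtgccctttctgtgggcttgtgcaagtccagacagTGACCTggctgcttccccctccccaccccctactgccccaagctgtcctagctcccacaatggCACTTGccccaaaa
Ckm: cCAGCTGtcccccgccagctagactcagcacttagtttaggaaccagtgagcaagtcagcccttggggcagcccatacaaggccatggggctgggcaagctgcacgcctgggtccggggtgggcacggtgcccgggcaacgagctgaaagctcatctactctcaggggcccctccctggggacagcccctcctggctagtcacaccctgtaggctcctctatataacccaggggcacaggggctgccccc
Fabp3: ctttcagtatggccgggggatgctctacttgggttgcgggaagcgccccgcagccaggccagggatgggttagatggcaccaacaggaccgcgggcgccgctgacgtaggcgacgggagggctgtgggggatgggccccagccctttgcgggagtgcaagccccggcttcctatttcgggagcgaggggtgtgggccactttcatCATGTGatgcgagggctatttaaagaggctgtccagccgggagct
Pdk4: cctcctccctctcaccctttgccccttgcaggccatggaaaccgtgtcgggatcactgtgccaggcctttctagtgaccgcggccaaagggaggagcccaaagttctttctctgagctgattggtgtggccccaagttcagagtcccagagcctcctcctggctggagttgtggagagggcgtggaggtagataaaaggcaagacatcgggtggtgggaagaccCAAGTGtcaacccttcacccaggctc

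An E-box, the motif of basic helix-loop-helix factors such as the myogenic ones, was found in all 4 windows, with 2 in that of Mb and 1 in each of the others. The same motif was present in 66.2% of 32851 RefSeq windows of this length, so its presence in all 4 is a description only. The hexamer AGGTCA, bound by nuclear receptors, was found in the Mb window shown and in none of the other 3, 77 to 72 bases before the start, and in 14.0% of all windows. This rests on the Mb start chosen: the window before the most upstream start held 0 hexamers and that before the most downstream start 1. None of the 4 windows held the TATA box letters TATAAA (12.4% of all windows), a MEF2 site (0.508%), a CArG box (1.47%) or a DR1 pair of hexamers (0.0335%). All motifs were searched on both strands; the DR1 pair contains the hexamer, and TATAAA can lie within a CArG box or a MEF2 site. A window without a match says only that these letters are not in it.

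The transcript models behind each value differed in their extent. The Mb locus, chr15:76829978-76881098 on mm9 (minus strand), held 13 models, of which 2 were UCSC models of 3 and 4 exons with different first exons, and 11 were assembled from reads. The assembled models ran the locus past the 3′ end of the UCSC models, so that it spanned 51.1 kb against 35.2 kb for the UCSC models alone. Reads were counted per locus, so use of the start sites cannot be read from the table. The Ckm locus, chr7:19996103-20009725 (plus strand), had 1 UCSC model of 8 exons and 1415 bases and 1 assembled model with the same introns and 4548 bases.

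Fabp3 lay at chr4:129983658-129993428 (plus strand), with 1 UCSC model of 4 exons and 640 bases, the shortest of the 5 genes, and 4 assembled models that together reached further in both directions. The Lpl locus, chr8:71403454-71438684 (plus strand), held 4 UCSC models, the longest of 4052 bases and 10 exons and another of 1900 bases and 11 exons, and 2 assembled models of 8139 and 10237 bases. Pdk4, at chr6:5433097-5461037 (minus strand), had 1 UCSC model of 11 exons and 3453 bases and 2 assembled models of 12 exons, each with a short first exon further upstream.

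Other loci shared exonic bases with 3 of the 5 genes. The antisense gene A930016O22Rik, at chr7:20002815-20006766, covered 451 of the 1415 exonic bases of the Ckm model (31.9%). Its own value was 477 ± 94.8 normalised read counts (SD, n = 4), which is 0.287% of the Ckm value. For Fabp3, an assembled antisense locus without a UCSC model covered 11.4% of the UCSC exonic bases with 48.6 ± 6.14 counts. A second antisense locus, at chr4:129992609-130037190, covered 15.5% with 1486 ± 98.1 counts. Over the Mb locus, an assembled antisense locus covered 9.05% of the UCSC exonic bases and the gene Apol6, on the opposite strand, 5.61%, at 15.2 ± 10.5 and 33.2 ± 7.91 counts. Another 3 single-exon loci without a strand lay inside the Mb locus and shared none of its exonic bases. No other locus overlapped Lpl or Pdk4. The sources used here do not give the strandedness of the libraries or how reads over shared bases were counted, and the effect on the levels of Ckm, Fabp3 and Mb was not tested.

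**Figure D1:**
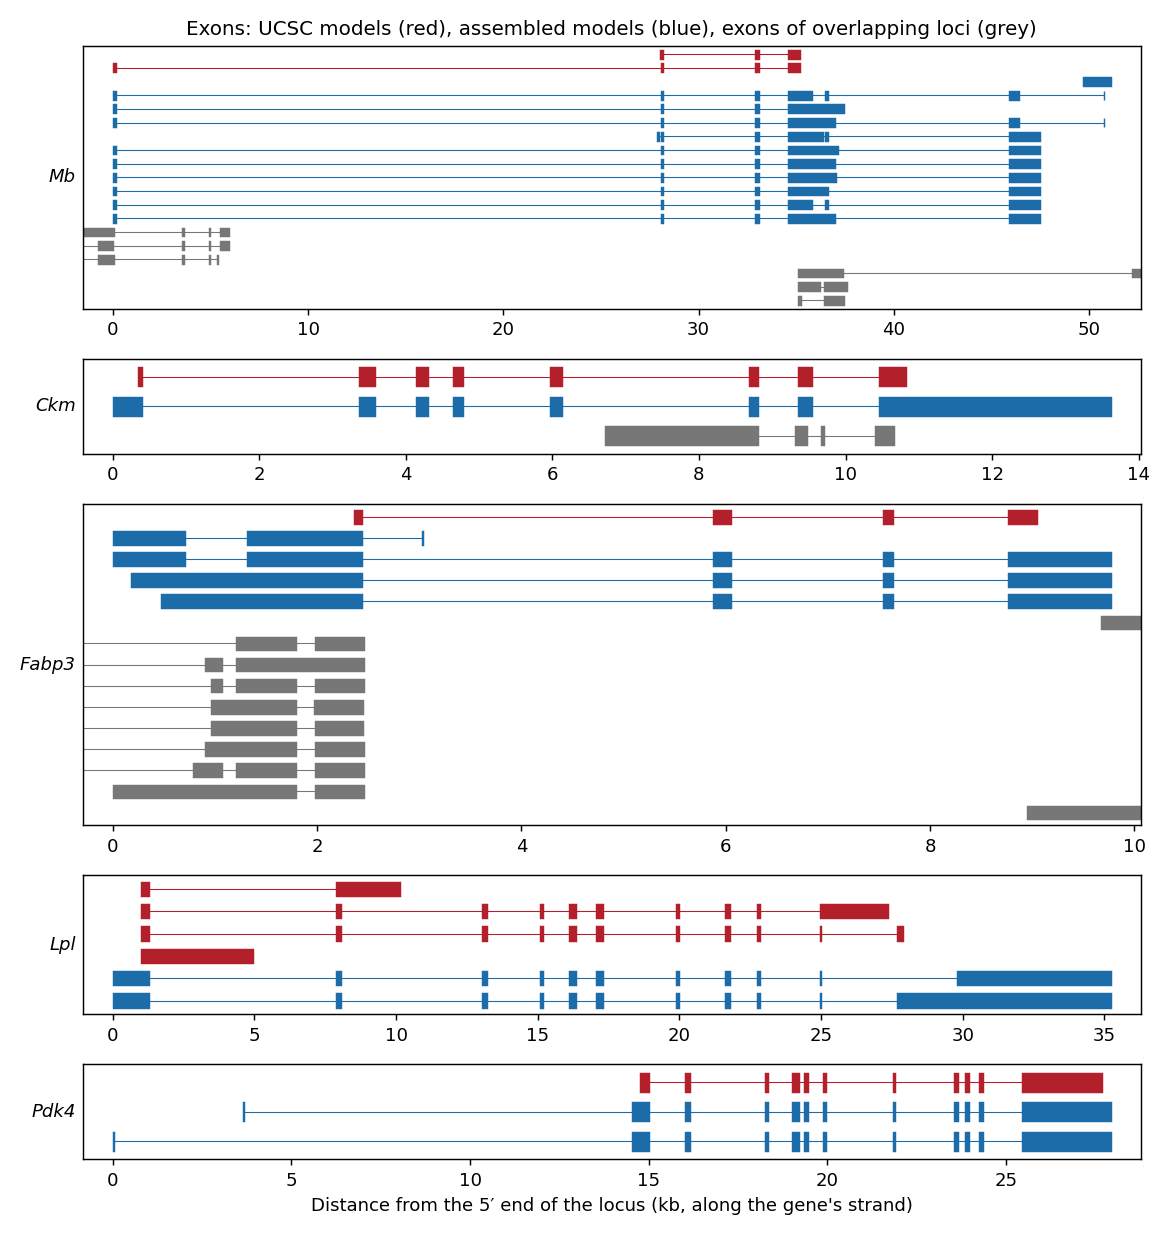
Exons (boxes) and introns (lines) of every transcript model of the 5 loci, drawn along each gene's strand, with the distance from the 5′ end of the locus in kb on the horizontal axis and 1 model per row. UCSC models are red, models assembled from reads are blue, and loci sharing UCSC exonic bases are grey; grey exons cover 31.9% of the Ckm model and none of Lpl or Pdk4.

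Myoglobin was among the most abundant nuclear transcripts of these hearts. For Mb, library 8R held 1541238 normalised read counts, 3RL held 1375757, 12RL held 1293115 and 7LR held 1209695. Normalised read counts are reads divided by 1 size factor per library. The mean was 1354951 ± 141491 (SD, n = 4), which placed Mb at number 10 of all loci and number 4 of the nuclear loci by read count. It took 0.792% ± 0.0479 of all counts and 1.14% ± 0.0906 of the nuclear ones. The highest library, 8R, was 1.27 times the lowest, 7LR.

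Lpl followed Mb by read count and stood at place 9 of the nuclear loci. Library 8R had 966643 counts of Lpl, 12RL had 884113, 7LR had 881667 and 3RL had 830814, with a mean of 890810 ± 56210 (SD, n = 4). Lpl varied least of the 5, with a CV of 6.31% and a ratio of highest to lowest of 1.16. The libraries 7LR and 12RL were nearly equal, with 8R above and 3RL below them.

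The fatty acid carrier Fabp3 reached 234111 counts in 8R and 205943 in 3RL, against 172318 in 12RL and 171478 in 7LR. Its mean was 195963 ± 30074 (SD, n = 4), and its CV of 15.3% was the largest of the 5. 3RL and 8R lay above 7LR and 12RL, which differed by little. By read count, Fabp3 stood at place 51 of the nuclear loci.

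By read count, creatine kinase came next after Fabp3. Ckm reached 185539 counts in 8R and 148387 in 7LR, with 12RL at 167838 and 3RL at 162922, a mean of 166171 ± 15327 (SD, n = 4) and place 70 of the nuclear loci. In 8R, the highest library, the count was 1.25 times that in 7LR, the lowest.

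Pdk4, the regulator of fuel choice, was the least abundant, at place 295 of the nuclear loci. Library 8R had 59314 counts of Pdk4, 7LR had 54574, 12RL had 54534 and 3RL had 47327, with a mean of 53937 ± 4945 (SD, n = 4). As for Lpl, 7LR and 12RL were nearly equal and 3RL was the lowest. The 5 genes together took 1.56% ± 0.0584 of all counts. Between 34588 and 1355714 reads lay behind each value, so that counting error alone gave a CV of at most 0.538%, far below the CVs of 6.31% to 15.3% between hearts.

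**Figure D2:**
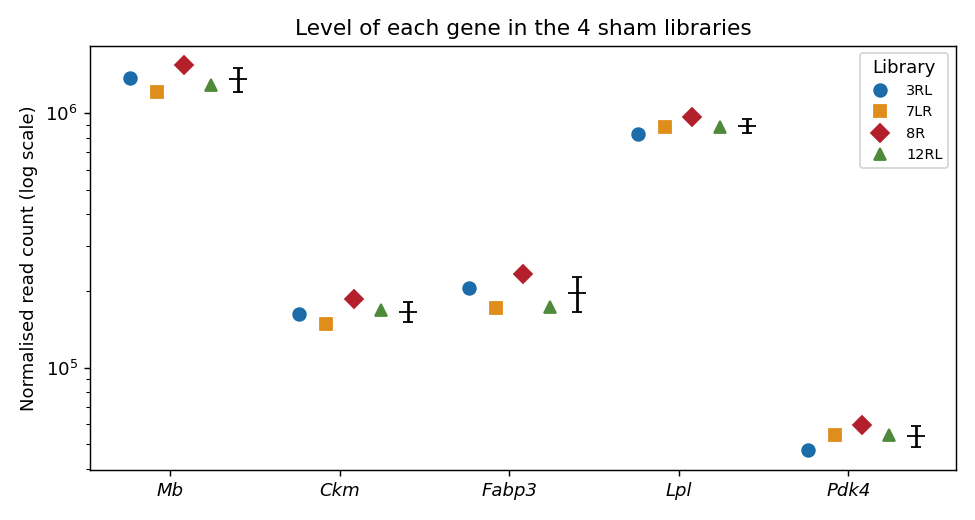
Normalised read count (vertical axis, log scale) of each gene in each of the 4 libraries, with the mean and SD (bar, n = 4) at the right of each gene. Library 8R is the highest point for all 5 genes, from 59314 for Pdk4 to 1541238 for Mb; the lowest is 7LR for Mb, Ckm and Fabp3 and 3RL for Lpl and Pdk4.

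Genes can be compared with each other only per length, here as normalised read count per kb of the longest UCSC model. On this scale Mb stood at 1283098 ± 133987 (SD, n = 4), number 2 of 26070 nuclear loci with a UCSC model. Fabp3 followed at 306192 ± 46991 (place 13), Lpl at 219844 ± 13872 (place 18), Ckm at 117436 ± 10832 (place 45) and Pdk4 at 15620 ± 1432 (place 470). Relative to their order by read count, Fabp3 and Lpl changed places, as the UCSC model of Lpl is the longer.

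The order Mb, Fabp3, Lpl, Ckm, Pdk4 per kb held in 4 of 4 libraries for each neighbouring pair. Mb was 4.21 times Fabp3 (3.99 to 4.55 over the libraries), and Lpl was 1.88 times Ckm (1.78 to 2.07). Ckm was 7.52 times Pdk4 (6.64 to 8.40). Each of these 4 neighbouring pairs gave p = 0.13 in an exact two-sided sign-flip test paired within libraries (Benjamini-Hochberg adjusted 0.13), the smallest p that 4 libraries allow, so none could pass 0.05. Fabp3 exceeded Lpl by 1.38 times, from 1.23 in 7LR to 1.57 in 3RL. That step rests on the length used: with the median length of the UCSC models of each locus, Fabp3 was higher in 2 of 4 libraries and the ratio was 1.1, and with the union of all exons it was higher in 2 of 4 and the ratio was 1.07. The other 3 steps held in 4 of 4 libraries with each length, although that from Ckm to Pdk4 fell to 2.70 times with the union of exons.

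Within each gene family the members differed widely in level per kb. These levels, and those of other genes below, were taken only per kb of the longest UCSC model. Other lengths were not tried for these comparisons, so how far the ratios rest on the length was not tested. Of the creatine kinases, the mitochondrial form Ckmt2 stood at 168804 ± 28485 per kb (SD, n = 4). It was 1.43 times the cytosolic muscle form Ckm, and higher in 4 of 4 libraries (1.33 to 1.59 times). The brain form Ckb was far lower, at 4005 ± 739, and Ckm exceeded it 29.6 times (23.4 to 34.2). Fabp3 exceeded Fabp4, the form typical of fat and of capillary endothelium, 3.0 times (2.73 to 3.23), with Fabp4 at 102151 ± 15566 per kb.

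Pdk4 was not the leading pyruvate dehydrogenase kinase by level per kb of the longest UCSC model. Pdk2 was 1.99 times as high (1.84 to 2.29 over the libraries), at 31018 ± 1484 per kb (SD, n = 4). Pdk1 stood at 7929 ± 301, and Pdk4 was 1.96 times Pdk1 (1.81 to 2.19). Pdk3 was at 206 ± 26.5. Pdha1, which encodes the catalytic subunit that these kinases phosphorylate, was at 44137 ± 3290, or 2.83 times Pdk4.

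Lipoprotein lipase can also be set beside the proteins it works with. Gpihbp1, the endothelial protein that holds the lipase at the capillary wall, stood at 11129 ± 2015 per kb (SD, n = 4), and Lpl was 20.0 times as high (17.2 to 24.0). Angptl4, an inhibitor of the lipase, was low, at 196 ± 46.8 per kb. Cd36, which takes up the freed fatty acids, was at 84659 ± 3129, and Lpl was 2.59 times Cd36 (2.45 to 2.72).

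Other genes of fuel use were taken from 4 lists of 45 symbols, of which 39 matched a locus of their own and 6 fell in loci merged with another gene and were left out of the counts. Mb exceeded all 39 per kb, while only Slc25a4, the exchanger of ADP and ATP in the inner mitochondrial membrane, exceeded Fabp3 and Lpl. It stood at 504704 ± 54972 per kb (SD, n = 4). Ckm was exceeded by 4 of the 39: Slc25a4, Ckmt2, the lactate dehydrogenase subunit gene Ldhb (162152 ± 12672) and Hadhb, of the trifunctional protein of fatty acid oxidation (135365 ± 9144). Pdk4 was exceeded by 19 of the 39, among them 9 of 16 genes of fatty acid use, 7 of 13 of glucose use and 0 of 6 regulators. The regulators were low, from Pparg at 663 ± 41.7 to Ppargc1a at 9859 ± 1978.

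**Figure D3:**
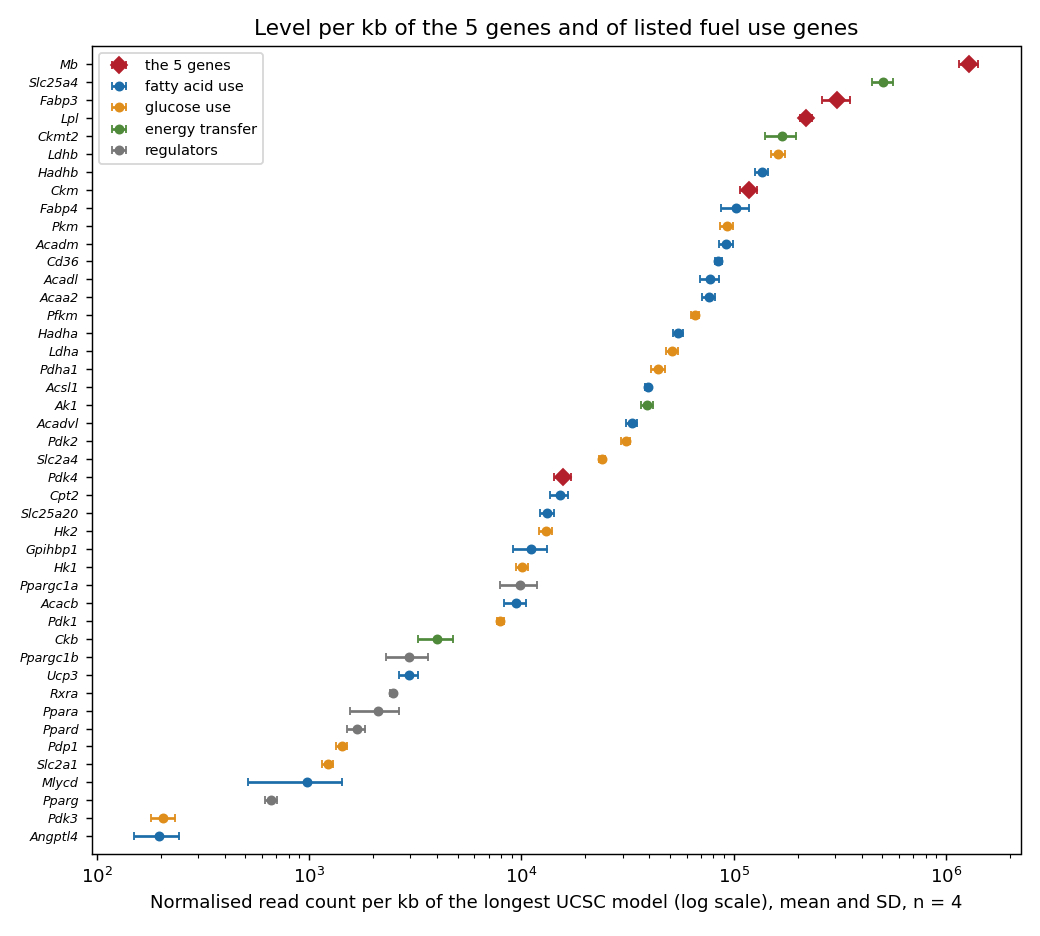
Normalised read count per kb of the longest UCSC model (horizontal axis, log scale; mean and SD, n = 4) of the 5 genes (red diamonds) and of 39 listed genes of fatty acid use, glucose use, energy transfer and their regulators (circles by list). Mb lies above all others at 1283098, only Slc25a4 lies between Mb and Fabp3, and Pdk4 lies in the middle of the lists at 15620.

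All 5 genes were highest in 8R. This is to be read against the table: of 14424 loci averaging at least 50 counts, 38.6% peaked in 8R, and of the 500 nuclear UCSC loci with the highest means 63.6% were. Of the 39 listed genes, 23 (59.0%) were highest in 8R. With libraries scaled to equal table totals, 3 of the 5 (Mb, Ckm and Fabp3) were still highest in 8R and Lpl and Pdk4 were highest in 7LR. That scaling changed 8R by -6.53% and 7LR by 5.19%, and 16.5% of loci were then highest in 8R. The share of counts from the mitochondrial chromosome was also highest in 8R (32.3%) and lowest in 7LR (29.2%), and its part in the result was not tested.

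No library stood apart at any of the 5 genes. Dixon's ratio, the gap of the highest or lowest value to its neighbour over the whole range, was at most 0.608 (8R at Lpl) and below the 95% critical value for 4 values. That value was passed upward by 3.15% and downward by 1.45% of the 14424 loci. It was passed at 0 of the 39 listed genes. At 5 genes, 0 passing is near what these shares give.

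The SD of log2(value + 1) over the libraries was 0.15 for Mb, 0.13 for Ckm, 0.22 for Fabp3, 0.09 for Lpl and 0.14 for Pdk4. Their median was 0.14, beside 0.15 over the 14424 loci and 0.11 over the 39 listed genes. Among the 500 loci of nearest mean, these SDs lay at percentiles 61.4 (Mb), 52.0 (Ckm), 85.4 (Fabp3), 24.2 (Lpl) and 55.2 (Pdk4). Mb, Lpl, Fabp3 and Ckm stood at places 10, 15, 58 and 77 of all loci by read count. For these genes the 500 loci were therefore the other loci with the highest means, most of them at lower levels. For Pdk4 the spread rested on 3RL, without which its SD was 0.07 and its percentile 16.2. For Mb and Lpl it rested on 8R, without which their SDs were 0.09 and 0.05. The percentile of Lpl was 15.6 without 8R and 42.4 without 7LR. With equal table totals the SDs of Mb, Ckm and Lpl were 0.09, 0.06 and 0.06, and the percentile of Ckm was 27.0. After the median deviation of loci of like spliced length was subtracted, the percentiles were 11 for Mb, 39.8 for Ckm, 30.4 for Fabp3, 53.6 for Lpl and 77.0 for Pdk4, so the order of the genes by percentile did not hold.

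By their longest UCSC models, the 3 short genes and the 2 long ones followed different patterns over the libraries. Mb, Ckm and Fabp3, with UCSC models of up to 1415 bases, were lowest in 7LR. Lpl and Pdk4, whose longest UCSC models have 4052 and 3453 bases, were lowest in 3RL. Lpl also has UCSC models of 1900 and 2523 bases, and assembled models of Mb and Ckm reach 4588 and 4548 bases. The lowest library of the short genes depended on the processing. With equal table totals Fabp3 was lowest in 12RL, and with the length trend removed Ckm was lowest in 3RL and Fabp3 in 12RL. Mb stayed lowest in 7LR, and Lpl and Pdk4 in 3RL, under both settings. Within libraries, the log2 ratio of Mb to Ckm had an SD of 0.06, and so had that of Lpl to Pdk4, while that of Fabp3 to Pdk4 had an SD of 0.24. The pairs did not split cleanly by length: the SD was 0.14 for Ckm with Fabp3, both short, and 0.10 for Ckm with Lpl and 0.12 for Mb with Lpl.

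These patterns were set beside the 500 loci of nearest spliced length, because the typical deviation of a library differs with transcript length. In 8R, Mb lay 0.19 above its own mean on the log2 scale and the loci of like length had a median of 0.15. In 7LR it lay at -0.16, with a median of -0.11 for loci of like length. Fabp3 was at 0.27 in 8R, beside a median of 0.22, and at -0.18 in 7LR, beside -0.15. Ckm was at 0.16 in 8R and -0.16 in 7LR, beside 0.14 and -0.10. In 8R and 7LR the 3 short genes thus lay on the same side as the loci of like length. In the other libraries Ckm lay on the opposite side, at -0.02 beside 0.04 in 3RL and at 0.02 beside -0.08 in 12RL.

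For Lpl and Pdk4, loci of like length hardly deviated. In 3RL, Lpl lay at -0.10 and Pdk4 at -0.18, where the loci of like length had medians of 0.01 and 0.01. In 8R they lay at 0.12 and 0.14, with medians of 0.00 and 0.03. When the median of loci of like length was subtracted, the SD over the libraries fell from 0.15 to 0.04 for Mb, from 0.13 to 0.08 for Ckm and from 0.22 to 0.07 for Fabp3. It was 0.09 for Lpl and 0.14 for Pdk4 both before and after. After subtraction, 8R was still the highest library for Mb, Fabp3, Lpl and Pdk4, while Ckm was highest in 12RL.

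**Figure D4:**
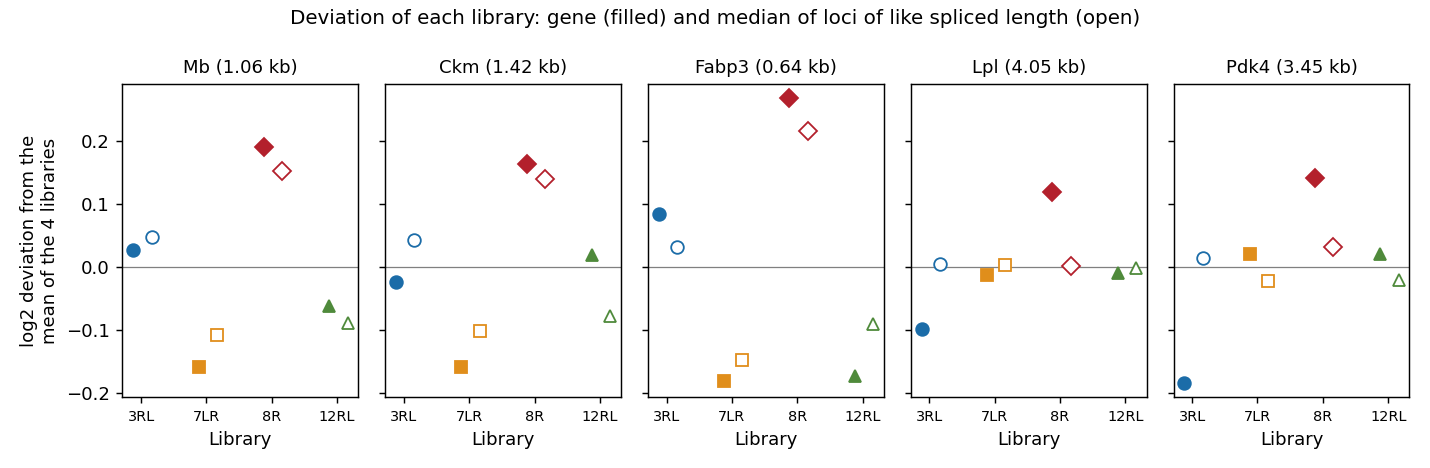
Difference between a library and the 4-library mean (vertical axis, log2 scale) for each gene (filled) and the median of the 500 loci of nearest spliced length (open), by library; spliced length in kb stands above each panel. For Mb, Ckm and Fabp3 filled and open symbols lie on the same side of 0 in 8R and 7LR, while for Lpl and Pdk4 the open symbols stay near 0 and 3RL lies at -0.10 and -0.18.

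The 6 listed regulators with a locus of their own differed in pattern. The PPAR nuclear receptors and their coactivators of the PGC-1 family are known activators of Lpl, Fabp3 and Pdk4. Ppara stood at 8905 counts in 12RL and 8685 in 7LR, and at 5948 in 8R and 5239 in 3RL, higher in 7LR and 12RL than in 3RL and 8R. In the same order, Ppargc1a had 35406, 34493, 23338 and 26250 counts and Ppargc1b 13613, 11989, 8177 and 9526. The SDs of log2 were 0.39, 0.30 and 0.33, at percentiles 98.0, 96.2 and 96.6 of loci of like mean. Loci of like length had median deviations of at most 0.04 in any library. With 4 libraries no correlation between regulators and the 5 genes was computed. Other PPAR genes were highest in 8R, as the 5 genes were: Ppard had 5888 counts there and 4681 in 7LR, its lowest, and Pparg had 1501 there and 1298 in 12RL, its lowest. Of the 6 regulators, 4 were highest in 12RL (Ppara, Ppargc1a, Ppargc1b and Rxra) and 2 in 8R. Rxra varied little, with a ratio of highest to lowest of 1.07. Of the 39 listed genes, which include the regulators, 10 were highest in 12RL. The share of all loci highest in 12RL is not given here, so these counts are a description only.

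The loci whose pattern over the 4 libraries was most like that of each gene were found by the root mean square difference of centred log2 values, among 13250 other loci with a UCSC model. For Mb these were Pgk1, which encodes a glycolytic enzyme (difference 0.0034), and Tufm, which encodes a mitochondrial elongation factor (0.0045). For Fabp3 they were Snf8 and Mea1, for Lpl Slain2 and Ythdc1, for Pdk4 6430710C18Rik and Azin1, and for Ckm Gm13262 and the unnamed locus chr11:116938104-116940269. The differences ran from 0.0022 to 0.016. A centred pattern over 4 libraries can be matched closely by some of 13250 loci whatever their function, so these names are a description only. Among the 5 genes the closest pairs were Lpl with Pdk4 (0.050) and Mb with Ckm (0.050). Of the 13250 loci, Lpl was number 150 in likeness to Pdk4 and Pdk4 number 709 in likeness to Lpl, while Ckm was number 1047 in likeness to Mb and Mb number 563 in likeness to Ckm.

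Whole tissue was sequenced, so a lower value can mean fewer cells of a type or less RNA per cell, which cannot be told apart. Markers of heart muscle were abundant: Actc1, cardiac actin, had 1388903 ± 227778 counts (SD, n = 4), and Ryr2, the calcium release channel, 376766 ± 85522. The other 3 markers of that list, Myh6, Tnnt2 and Tnni3, fell in loci merged with other genes. Like Mb and Fabp3, Actc1 was highest in 8R and lowest in 7LR, while Ryr2, with a model of 16813 bases, was highest in 12RL.

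Fat cells can also hold much Lpl RNA, and skeletal muscle Mb and Ckm RNA. The fat cell markers Adipoq, Plin1 and Cfd were at 7.71 ± 3.35, 5.25 ± 2.85 and 21.8 ± 9.69 counts (SD, n = 4), and Lep was at 0 in each library. Fabp4, which endothelium also expresses, had 62823 ± 9573 and made up nearly all of the summed level of the list, from 54268 in 12RL to 72467 in 3RL. Of the skeletal muscle list, leaving out Ckm itself, Myh4 was at 0 and Myh1 at 5.81 ± 4.02. Tnnt3 had 50.4 ± 18.6. Acta1, which heart muscle also expresses, ranged from 18333 in 7LR to 50459 in 8R. Its range brought the sum of that list to 18377 in 7LR and 50535 in 8R.

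Markers of endothelium (Pecam1, Cdh5 and Kdr) and of macrophages (Adgre1 and Csf1r) were highest in 3RL. The share of all loci highest in 3RL is not given here, so this is a description only. The summed levels of these 2 lists ran from 79215 in 8R to 110676 in 3RL for endothelium and from 6297 in 12RL to 8954 in 3RL for macrophages. Of genes outside these lists that endothelium expresses, Gpihbp1 was highest in 8R, at 11083 counts against 8721 in 3RL, and Fabp4 was highest in 3RL. The fibroblast markers Col1a1, Pdgfra and Dcn summed to between 68758 in 7LR and 78439 in 3RL, mostly from Dcn (52830 ± 2614), which was highest in 8R. Col1a1 ranged from 9157 in 12RL to 21094 in 3RL, or 2.30 times, and Pdgfra was highest in 12RL. The macrophage marker Cd68 lay in a merged locus, and the blood markers Hbb-b1 and Hba-a1 were not matched to a locus. The part of these cells in the differences of the 5 genes between libraries was not tested.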

How the data were processed

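Poly(A)-selected RNA of 4 sham hearts was sequenced as paired reads, per the labels' protocols. The deposited signal values are read counts that the authors divided by 1 size factor per library. Dividing each value by the worth of 1 read in its library gave whole numbers (tolerance 0.001) for 100% of values, and these reads totalled 108345923 to 160670654 per library. A deposited GTF, whose coordinates are other values than measurements, gave exon positions on mm9. The submitters' processing notes name DESeq, HTSeq 0.5.4p2, Cufflinks 2.0.2 and TopHat2 2.0.5, and the build mm9. The strandedness and the counting mode were not given in the sources used here. The labels call the samples biological replicates and name no animals, so spreads may be partly technical.

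The 5 genes and the lists were chosen with earlier results of these data known. The lists were set to be used where a table pairs mm9 loci with symbols. No such table was found, so symbols were taken from identical chains of exon and intron lengths in GENCODE vM21 (GRCm38), a step chosen after the files were seen. No coordinate was converted. The named genes are the 5 genes, for each the 2 loci of most like pattern, loci overlapping a gene or its interval, and listed genes. Values were not filtered for levels. Spread and Dixon's ratio used loci with a mean of 50 or more, and log2 values a pseudocount of 1. The analysis used Python 3.11.15 with numpy 2.4.6 and pandas 2.3.3. R 4.3.3 with edgeR 4.0.16 gave TMM factors of the recovered reads. Dixon's ratio, the percentile of the SD and the search for loci of like pattern were tested on simulated data, which held no trend with length. The other steps were not tested in this way. Alternatives were other scalings, pseudocounts, lengths and minimum means, removal of the length trend and leaving out each library.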

Additional observations from a re-analysis of the deposited data

Results flagged for a closer look

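Of 68 named genes and loci looked at, 1 had a library far from the other 3, which chance gives in about 1 of 20 groups. Pecam1, an endothelial marker, had 27875 normalised read counts in 3RL, against 22423 (7LR), 22705 (8R) and 22479 (12RL) in the others, with a Dixon's ratio of 0.948. None of the 5 genes was picked out in this way.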

How the results depend on the processing

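The order by mean level per kb kept all 5 places with both other lengths, although Fabp3 then exceeded Lpl in only 2 of 4 libraries. Without each library the order also kept 5 places, but this was fixed beforehand, since it held in 4 of 4 libraries. No library stood apart at any of the 5 genes under the log2 scale or the 3 other scalings. The median SD of log2 over the 5 genes, 0.14, was 0.0871 with equal table totals and 0.0769 with the length trend removed, and 0.0928 to 0.165 when 1 library was left out. The number of genes highest in 8R, 5 of 5, was 3 with equal table totals, 4 with the length trend removed, and 5 under median-of-ratios or TMM scaling. Leaving out 3RL, 7LR or 12RL cannot change this number, because 8R stays the highest, so it is no check. These alternatives for the number highest in 8R were added after seeing the data. With the union of all exons the levels per kb were 209291 (Mb), 52424 (Fabp3), 48561 (Lpl), 36537 (Ckm) and 13552 (Pdk4), as the exons are longer. Mean levels moved by less than 1 SD in all 35 cases, which says little. Leaving out 1 of 4 libraries cannot move a mean by 1 SD. The other scalings were set to the same geometric mean of size factors, which leaves a mean little room to move. At a minimum mean of 200, 1 of the 2 loci most like Ckm remained. Where no cause is given, the cause was not tested. No paired analysis was possible because the libraries have no second group to be paired with; the sign-flip test paired genes within libraries. Depth does not limit these genes, with at least 34588 reads each.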
